A study of Homo sapiens with 24 samples.

Results

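The BCL2 family decides whether a stressed cell keeps its mitochondria intact. Messenger RNA of 10 of its genes is described here across 2 human cholangiocarcinoma cell lines: the survival genes MCL1, BCL2, BCL2L1 and BCL2L2, the BH3-only genes BCL2L11, BMF, BID and BAD, and the effector genes BAK1 and BOK. The genes were picked by symbol, and each matched 1 row of the 57820 rows in the deposited table. RBE and SNU1079 are bile duct cancer lines which, per the labels, carry mutant IDH1 and express SULT1A1, a sulfotransferase, and the series' title concerns alkylating compounds that depend on sulfonation. Each line received YC-1, a small molecule also known as lificiguat, or the solvent DMSO, for 6 h or 16 h. This makes 8 groups of 3 libraries, 24 in all, and the design text calls the replicates biological. The labels state no dose, and a separate time label gives 16 h for all DMSO libraries and 6 h for all YC-1 libraries, so times were taken from the titles and the design text. Each line is a single established line, so a difference between them is a difference between 2 lines and not between kinds of tumour. In bulk RNA, fewer cells that express a gene and less of its RNA per cell cannot be told apart.

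Survival members of the family hold the effector proteins BAK and BAX, and their BH3-only activators, in a groove on their surface, and thereby keep the outer mitochondrial membrane closed. BH3-only members insert a short helix, the BH3 domain, into that groove. Once freed, the effectors form pores through which cytochrome c leaves the mitochondrion and starts caspase activation. MCL1 stands out among the survival members because its protein and its messenger are both short-lived, so its amount depends on continued synthesis, and bile duct cancers are known to rely on MCL1 and on BCL-XL, the product of BCL2L1.

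The BH3 helix is the part through which these proteins meet, and its coding sequence is set side by side here. A leucine, 3 residues of any kind, a glycine, alanine or serine, and an aspartate were searched for in the protein-coding frame of GENCODE 29 transcripts on GRCh38. The 18 bases of that match are in capitals, with 24 bases on each side, for MCL1, BCL2L1, BMF and BAK1, whose values carry most of the results, and for BCL2 and BCL2L11, the best-known survival and BH3-only members. All are written 5′ to 3′ on the coding strand.
MCL1: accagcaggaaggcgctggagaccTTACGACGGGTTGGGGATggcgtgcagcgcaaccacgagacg
BCL2: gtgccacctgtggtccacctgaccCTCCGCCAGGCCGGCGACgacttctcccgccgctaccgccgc
BCL2L1: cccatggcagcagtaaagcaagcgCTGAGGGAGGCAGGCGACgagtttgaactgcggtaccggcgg
BCL2L11: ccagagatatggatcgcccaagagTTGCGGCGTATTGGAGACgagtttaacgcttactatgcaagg
BMF: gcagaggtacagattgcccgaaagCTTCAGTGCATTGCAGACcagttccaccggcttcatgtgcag
BAK1: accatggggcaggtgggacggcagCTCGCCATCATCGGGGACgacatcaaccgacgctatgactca
These stretches lie at chr1:150578853-150578918 in exon 1 of MCL1, chr18:63318337-63318402 in exon 2 of BCL2, chr20:31721910-31721975 in exon 2 of BCL2L1, chr2:111150079-111150144 in exon 3 of BCL2L11, chr15:40104183-40104248 in exon 4 of BMF and chr6:33575375-33575440 in exon 4 of BAK1. BCL2L11 lies on the forward strand and the others on the reverse strand. A match was found in 9 of the 10 members, all but BCL2L2, and those of BAD and BOK each span 2 exons. The lack of a match means only that this pattern was not met. BID had 2 matches, and the second, at residues 136 to 141, was picked for the comparison of pairs. Over 66 bases, the 36 pairs of members shared a median of 39.4% of their bases. Part of this was set by the search pattern, and no other sequences were compared. The closest pair was BCL2L11 and BMF, at 59.1%, and the most distant was MCL1 and BAD, at 30.3%.

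All values are the authors' normalised counts, which summed to between 19010000 and 27010000 per library. Of the 10 members, 9 were at 10 or more in all 24 libraries, and BOK was not. Biliary and epithelial markers (KRT7, KRT8, KRT18, KRT19, EPCAM, SOX9) were well expressed in both lines, while the hepatocyte genes ALB and APOA1, the endothelial gene CDH5 and the leukocyte genes PTPRC and CD3E stayed at or under 10.45. Of the 13 markers of other cell types, CD68 (1036 to 4110), ACTA2 (401.6 to 864.9) and, in SNU1079, COL1A1 (660.5 to 3808) were the highest, and no other passed 115.3. Mitochondrially encoded genes held 6.02% to 8.5% of the signal in DMSO libraries and 15.36% to 17.01% in RBE after 16 h of YC-1. In SNU1079 at that time the share was 18.09% and 22.12% in 2 libraries and 3.38% in replicate 2. That library was set apart by this share, while its mean correlation with its group, 0.9589, was near the 0.959 of replicate 3. Replicate 1 of SNU1079 DMSO at 16 h (0.9635) and replicate 1 of SNU1079 YC-1 at 6 h (0.9643) had the lowest such correlation of their groups. These are the 3 libraries that stood apart in what follows. Values that moved without them are given beside the results they touch. Rescaling each library to equal sums lowered the median 16 h change of all genes by 0.33 log2 units in RBE and 0.36 in SNU1079. Scaling to 81 ribosomal protein genes lowered it by 0.90 and 0.54, and by 0.23 in SNU1079 at 6 h.

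YC-1 was compared with DMSO within each line and time, which asks how the treatment moved the family. MCL1, BCL2, BCL2L1 and BMF fell, though MCL1 did not pass the test in SNU1079 at 6 h, nor BCL2 in RBE at 6 h. At 16 h BAK1 rose in RBE and BCL2L2, BID and BAD rose in SNU1079. These rises, and the fall of BCL2 in RBE at 16 h, each depended on the scaling or on single libraries. In RBE at 6 h, 3 of 10 members passed the test, against 24.0% of the 17860 genes tested; all 3 (MCL1, BCL2L1 and BMF) were lower and 0 higher, against 12.4% and 11.6% of all genes. In RBE at 16 h 5 members passed, against 53.9% of all genes, with 4 lower (26.6%) and 1 higher (27.3%). In SNU1079 at 6 h 3 passed, against 28.2%, with 3 lower (14.2%) and 0 higher (14.0%). At 16 h 7 passed there, against 54.5%, with 4 lower (25.8%) and 3 higher (28.7%). At both times the shares that passed were near those of all genes, and the 6 h split by direction rests on 3 members in each line. Median log2 changes of the 10 members were -0.05, -0.17, -0.27 and -0.04 in these 4 comparisons, beside 0.00, 0.02, 0.01 and 0.06 over all genes tested. BCL2L1 and BMF were the 2 members that fell in all 4 comparisons. A gene passed at a Benjamini-Hochberg adjusted p under 0.05 in limma, and changes are differences of log2(normalised count + 1).

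**Figure D1:**
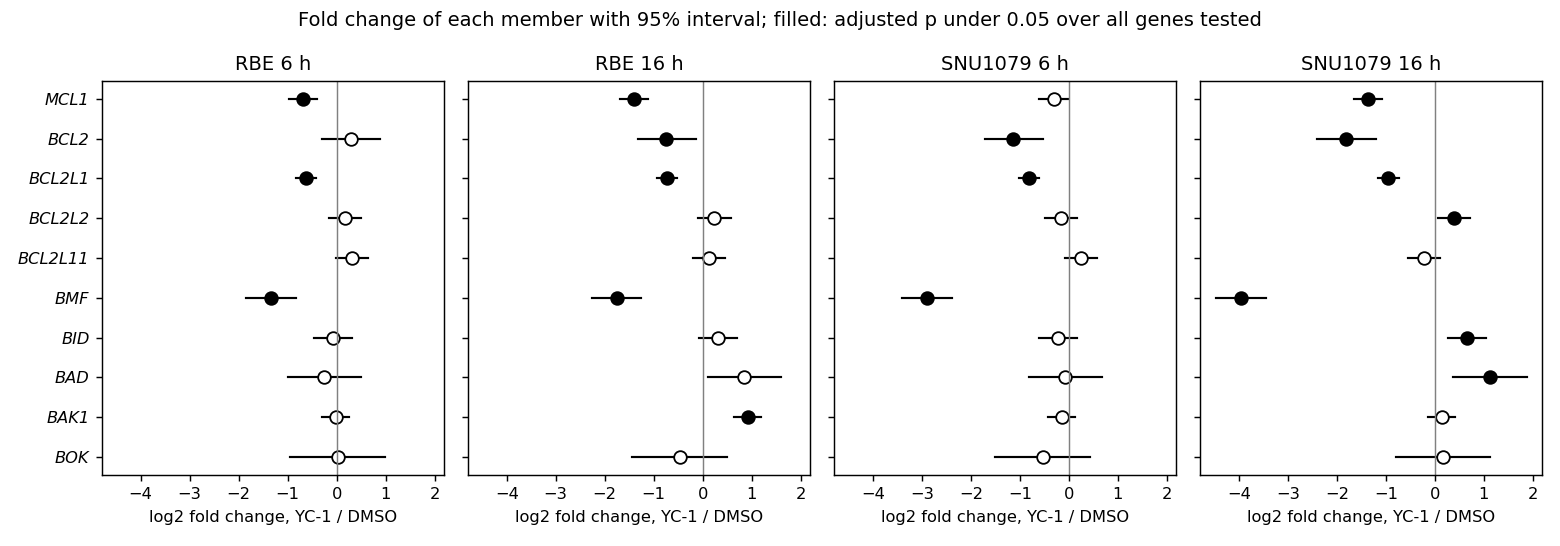
Log2 change of each member, YC-1 against DMSO (horizontal axes, on the scale of log2 of normalised count plus 1), in the 4 combinations of line and time, with 95% confidence intervals from limma; filled points passed the adjusted p of 0.05. MCL1 lies between -1.40 and -0.31 and BMF between -3.96 and -1.35, while BAK1 is highest in RBE at 16 h, at 0.92, a rise that is 0.01 when libraries are scaled to ribosomal protein genes.

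MCL1 (ENSG00000143384, chr1:150574551-150579738, reverse strand) encodes the short-lived survival protein. In RBE at 6 h its normalised counts were 11380, 12470 and 11270 with DMSO and 7312, 7411 and 7109 with YC-1. By 16 h they were 10110, 9637 and 10420 with DMSO and 3927, 4126 and 3382 with YC-1. No YC-1 library of RBE reached any DMSO library, and the 16 h YC-1 libraries also lay below all 6 h YC-1 libraries. The log2 change was -0.68 ± 0.14 (SE, n = 3 per group; adjusted p = 0.000832, limma) at 6 h and -1.40 ± 0.14 (adjusted p = 3.1e-08, limma) at 16 h, which leaves 0.622 and 0.378 of the DMSO level. Scaling to ribosomal protein genes made the 16 h change -2.30. SNU1079 had a lower starting level. Its 6 h counts were 7174, 7113 and 5861 with DMSO and 4173, 6227 and 6021 with YC-1, and these groups overlapped. That difference, -0.31 (95% interval -0.60 to -0.02), did not pass the test (adjusted p = 0.102, limma). It did pass when libraries were scaled to equal sums (-0.36, adjusted p = 0.0367), scaled to ribosomal protein genes (-0.54, adjusted p = 0.0454) or left without YC-1 replicate 2 (-0.42, adjusted p = 0.045), and it was -0.13 without the 3 libraries that stood apart. At 16 h the SNU1079 counts were 4273, 5800 and 5907 with DMSO and 2102, 1853 and 2210 with YC-1. The groups were clearly separate, with a log2 change of -1.36 ± 0.14 (adjusted p = 5.2e-08, limma), or 0.389 of the DMSO level.

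The YC-1 effect on MCL1 grew with time in both lines. From 6 h to 16 h it became more negative by -0.72 ± 0.20 log2 units in RBE (adjusted p = 0.0138, limma; -1.55 when scaled to ribosomal protein genes) and by -1.05 ± 0.20 in SNU1079 (adjusted p = 0.000997, limma). In the tests of this difference between times, 2 of 10 members passed in RBE, against 18.2% of all genes, and 3 in SNU1079, against 17.0%. Between the lines the effect on MCL1 differed by 0.37 at 6 h (95% interval -0.03 to 0.78) and by 0.04 at 16 h (-0.37 to 0.45), and neither passed the test. With both times pooled, as the separate time label would require, the MCL1 change was -1.04 in RBE (adjusted p = 0.00208, limma) and -0.84 in SNU1079 (adjusted p = 0.0105, limma).

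BCL2L1 (ENSG00000171552, chr20:31664452-31723989, reverse strand) encodes BCL-XL, a stable survival protein, and a shorter death-promoting splice form that gene-level counts do not separate. Its counts in RBE at 6 h were 6403, 5842 and 6365 with DMSO and 3889, 3973 and 4218 with YC-1. At 16 h they were 5695, 6130 and 6605 with DMSO and 3519, 3745 and 3837 with YC-1. The 2 times gave log2 changes of -0.62 ± 0.10 (adjusted p = 6.97e-05, limma) and -0.73 ± 0.10 (adjusted p = 2.71e-06, limma), which were -0.69 and -1.63 when scaled to ribosomal protein genes. In SNU1079 at 6 h BCL2L1 stood at 10980, 10670 and 11310 with DMSO and at 7273, 5727 and 5911 with YC-1. At 16 h it stood at 8010, 7723 and 7459 with DMSO and at 4382, 4291 and 3402 with YC-1. YC-1 and DMSO libraries did not overlap at either time, and the changes were -0.81 (adjusted p = 2.67e-06, limma) and -0.95 (adjusted p = 7.95e-08, limma), or -1.04 and -1.49 under that scaling. ABALON, an antisense transcript annotated over 1424 exonic bases of BCL2L1, was not analysed here.

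RefSeq start regions on GRCh38.p14 were available for 8 of the members, 15 entries in all, each with 250 bases before the start and 50 after. The 250 bases before the outermost start are shown for the 2 members that fell in every comparison, 5′ to 3′ on the coding strand (the reverse strand for both), at chr20:31723964-31724213 for BCL2L1 and chr15:40108880-40109129 for BMF. Capitals mark matches, on either strand, to the GC box GGGCGG, to the CCAAT box, to the letters TGACG, which form the core of the cyclic AMP response element, and to the ATF4 and C/EBP composite element TGATGNAA. No marked match overlaps another.
BCL2L1: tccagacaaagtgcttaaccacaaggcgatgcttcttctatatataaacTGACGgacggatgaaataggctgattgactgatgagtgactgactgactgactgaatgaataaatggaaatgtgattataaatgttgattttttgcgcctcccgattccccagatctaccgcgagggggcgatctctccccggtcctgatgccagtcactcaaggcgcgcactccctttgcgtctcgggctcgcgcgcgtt
BMF: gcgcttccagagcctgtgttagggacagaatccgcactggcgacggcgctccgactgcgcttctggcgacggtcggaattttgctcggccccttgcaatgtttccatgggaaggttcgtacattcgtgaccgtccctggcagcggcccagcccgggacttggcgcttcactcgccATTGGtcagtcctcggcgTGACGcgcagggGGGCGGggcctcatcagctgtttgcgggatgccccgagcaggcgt
The BCL2L1 stretch holds 1 TGACG, and the BMF stretch holds the CCAAT box on the other strand, where it reads ATTGG, followed by 1 TGACG core and 1 GC box. Among all 35116 RefSeq start regions of 300 bases, 45% held GGGCGG, 34.6% held CCAAT, 24.6% held TGACG and 3.62% held TGATGNAA. The last was found in 0 of the 15 members' regions.

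BCL2 (ENSG00000171791, chr18:63123346-63320128, reverse strand), the founding survival gene, was low in both lines. RBE counts at 6 h were 49.9, 92.7 and 83.2 with DMSO and 81.8, 86.7 and 102 with YC-1, and the groups overlapped. At 16 h they were 70.1, 61.4 and 87.9 with DMSO and 37.6, 39.5 and 53.6 with YC-1. The 16 h groups were separate and the change was -0.74 ± 0.29 (adjusted p = 0.0344, limma), but at these low levels it did not pass without DMSO replicate 1 (-0.76, adjusted p = 0.0626) or 3 (-0.60, adjusted p = 0.133), or without YC-1 replicate 1 (-0.64, adjusted p = 0.109) or 2 (-0.68, adjusted p = 0.0926). It was -1.62 when scaled to ribosomal protein genes. SNU1079 started higher, at 233, 178 and 225 with DMSO at 6 h, and fell to 124, 92.0 and 77.5 with YC-1. At 16 h it had 310, 184 and 258 with DMSO and 45.4, 73.1 and 100 with YC-1. The groups did not overlap at either time, and the changes were -1.13 (adjusted p = 0.00489, limma) and -1.81 (adjusted p = 1.8e-05, limma).

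BCL2L2 (ENSG00000129473, chr14:23298790-23311759, forward strand), which encodes the survival protein BCL-w, did not follow the other 3 survival genes. RBE libraries ran from 529.6 to 671 with DMSO and from 652 to 788 with YC-1, and the changes of 0.17 at 6 h and 0.24 at 16 h did not pass. The latter was -0.08 under equal sums and -0.66 under scaling to ribosomal protein genes (adjusted p = 0.00046). In SNU1079 at 16 h the counts were 698, 765 and 736 with DMSO and 927, 1375 and 689 with YC-1. YC-1 replicate 2 was the highest and replicate 3 lay below all DMSO libraries. The change of 0.39 just passed (adjusted p = 0.0448, limma) but was not kept in 16 of 24 alternatives, among them each fit without 1 library other than YC-1 replicate 3 (0.13 to 0.62 over these 6 fits). It was 0.13 without YC-1 replicate 2 (adjusted p = 0.411), 0.09 without the 3 libraries that stood apart (adjusted p = 0.544) and -0.15 under scaling to ribosomal protein genes. The read-through gene BCL2L2-PABPN1 shares 813 exonic bases on the same strand, with a mean of 140.45, so reads from the pair could have been divided in counting. PPP1R3E shares 206 exonic bases on the opposite strand, at a mean of 210.37. At 6 h and 16 h it changed by 1.11 and 0.67 in RBE and by -0.50 and -1.07 in SNU1079. The strand setting of counting is not given, so reads of PPP1R3E and BCL2L2 cannot be told apart there.

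**Figure D2:**
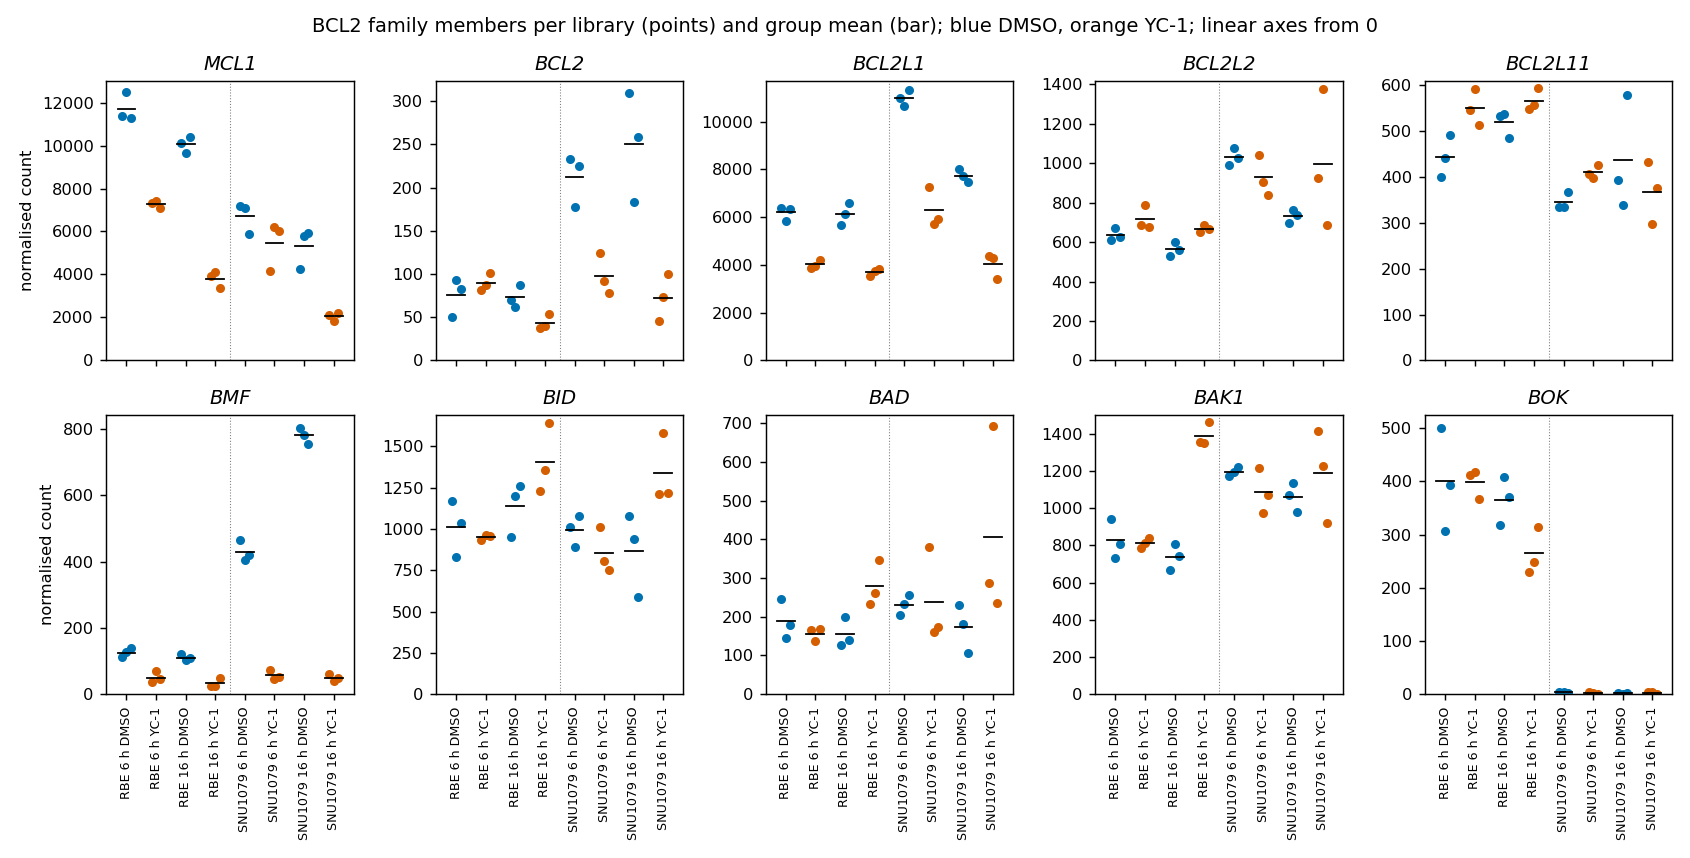
Normalised count of each of the 10 members in all 24 libraries (points, linear vertical axes from 0), grouped by line, treatment and time, with a bar at each group's mean. MCL1 runs from 12470 in RBE with DMSO to 1853 in SNU1079 after 16 h of YC-1, BMF is separated between treatments in both lines, and BOK lies near 0 in SNU1079.

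BMF (ENSG00000104081, chr15:40087890-40108892, reverse strand) encodes a BH3-only protein held on the cytoskeleton until stress or loss of attachment frees it, and among the 10 members it had the largest change in each of the 4 comparisons. In RBE at 6 h its counts were 111, 127 and 139 with DMSO and 37.2, 68.7 and 44.6 with YC-1. At 16 h they were 120, 102 and 109 with DMSO and 25.6, 26.0 and 47.8 with YC-1. The RBE groups were separate at both times, with changes of -1.35 ± 0.25 (adjusted p = 0.00029, limma) and -1.76 ± 0.25 (adjusted p = 3.58e-06, limma). SNU1079 held several times more BMF before treatment, with 464, 404.5 and 419 at 6 h and 804, 783 and 756 at 16 h under DMSO. Under YC-1 it stood at 74.2, 46.4 and 52.9 at 6 h and at 59.8, 40.2 and 50.1 at 16 h. After treatment the libraries of both lines overlapped in a low range, and the SNU1079 changes were -2.90 ± 0.25 (adjusted p = 1.84e-08, limma) and -3.96 ± 0.25 (adjusted p = 4.5e-11, limma), or 0.134 and 0.0644 of the DMSO level. All 4 calls for BMF held in each alternative that was run. BMF-AS1, annotated over 461 exonic bases on the opposite strand, had a mean of only 4.8 over all libraries.

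The BMF effect was larger in SNU1079 than in RBE. The difference was -2.19 log2 units at 16 h (adjusted p = 0.000241, limma), and it passed in all 12 fits that left out 1 library. At 6 h it was -1.55 (adjusted p = 0.0215, limma) and failed in 6 of 12 such fits, those without RBE DMSO replicate 1 (-1.46) or 2 (-1.56), RBE YC-1 replicate 2 (-1.30), SNU1079 DMSO replicate 1 (-1.49), or SNU1079 YC-1 replicate 2 (-1.40) or 3 (-1.50). In this test between lines 1 of 10 members passed at 6 h, against 1.54% of all genes, and 2 at 16 h, against 14.6%. From 6 h to 16 h the SNU1079 effect became more negative by -1.06 ± 0.35 (adjusted p = 0.0399, limma). Between these times the DMSO mean went from 429.2 to 781, while the YC-1 mean was 57.83 and then 50.02. The difference between times failed in 9 of 12 fits without 1 library (-1.12 to -0.87). It passed without YC-1 replicate 1 or 3 at 16 h or YC-1 replicate 2 at 6 h. It was -0.70 without the 3 libraries that stood apart (adjusted p = 0.175, limma).

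BCL2L11 (ENSG00000153094, chr2:111119378-111168447, forward strand) encodes BIM, which binds all survival members and activates the effectors directly. No comparison of YC-1 with DMSO passed for it. Its counts at 6 h were 399, 440.5 and 491 with DMSO and 546, 592 and 514 with YC-1 in RBE, where the groups did not overlap but the change of 0.31 ± 0.16 did not pass (adjusted p = 0.167, limma). At 16 h they were 533.5, 538 and 485 with DMSO and 548, 557 and 594 with YC-1, a difference of 0.13 that was -0.20 under equal sums and -0.77 under scaling to ribosomal protein genes (adjusted p = 0.00225). In SNU1079 the libraries ran from 334.5 to 580 with DMSO and from 298 to 432 with YC-1, and the differences were 0.25 at 6 h (adjusted p = 0.276, limma) and -0.22 at 16 h (adjusted p = 0.24, limma). The 16 h difference passed under equal sums (-0.59, adjusted p = 0.00247) and under scaling to ribosomal protein genes (-0.76, adjusted p = 0.00304). MIR4435-2HG shares 727 exonic bases on the opposite strand at a mean of 978.76, about as high as BCL2L11 or higher, and it fell by 0.78 in RBE at 6 h and, in SNU1079, by 0.96 and 1.19. Whether counting used strand is not given in the sources used here, so reads of the pair cannot be told apart.

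BID (ENSG00000015475, chr22:17734138-17774770, reverse strand) links death receptors to mitochondria, since caspase-8 cuts its protein into the active form. In SNU1079 at 16 h its counts were 1079, 940 and 590 with DMSO and 1213, 1582 and 1219 with YC-1. All YC-1 libraries were higher, and DMSO replicate 3 was the lowest by a wide margin. The rise of 0.66 ± 0.19 (adjusted p = 0.00561, limma) was 0.40 without that library (adjusted p = 0.061), 0.29 under equal sums and 0.11 under scaling to ribosomal protein genes, and it failed in 7 of 24 alternatives. The other 3 comparisons did not pass. RBE at 16 h had 953, 1202 and 1259 with DMSO and 1229, 1356 and 1639 with YC-1, overlapping groups with a difference of 0.31 that was -0.02 under equal sums and -0.59 under scaling to ribosomal protein genes (adjusted p = 0.00614). From 6 h to 16 h the SNU1079 effect rose by 0.88 ± 0.27 (adjusted p = 0.0273, limma), a difference that was 0.57 under equal sums (adjusted p = 0.179) and 0.56 under scaling to ribosomal protein genes (adjusted p = 0.133) and failed in 6 of 12 fits without 1 library. These left out DMSO replicate 3 (0.62) or YC-1 replicate 2 (0.75) at 16 h, or at 6 h DMSO replicate 1 (0.86) or 3 (0.82) or YC-1 replicate 2 (0.84) or 3 (0.79).

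BAD (ENSG00000002330, chr11:64269830-64284704, reverse strand), a BH3-only sensor that growth factor signalling holds inactive by phosphorylation, was variable between libraries. Its SNU1079 counts at 16 h were 232, 180.2 and 107 with DMSO and 288, 692 and 235 with YC-1. YC-1 replicate 2 was more than 2 times any other library of the group pair. The rise of 1.13 ± 0.36 (adjusted p = 0.0119, limma) fell to 0.66 without that library (adjusted p = 0.115) and to 0.82 without DMSO replicate 3 (adjusted p = 0.0839). It was 0.59 under scaling to ribosomal protein genes (adjusted p = 0.124) and 0.90 without the 3 libraries that stood apart (adjusted p = 0.0089). In RBE at 16 h the counts were 128, 198 and 141 with DMSO and 232, 260.5 and 346 with YC-1. These did not overlap, yet the difference of 0.85 just missed the threshold (adjusted p = 0.0534, limma). It passed in 6 of 23 alternatives, among them the fit without DMSO replicate 2 (1.03, adjusted p = 0.0396, limma). Under scaling to ribosomal protein genes it was -0.05. At 6 h neither line passed. GPR137, which shares 404 exonic bases with BAD on the opposite strand, rose by 0.87 in RBE at 16 h.

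BAK1 (ENSG00000030110, chr6:33572547-33580293, reverse strand) encodes a pore-forming effector that sits on the outer mitochondrial membrane and that MCL1 and BCL-XL hold in check. In RBE at 6 h its counts were 943, 733 and 808.5 with DMSO and 787, 814 and 837 with YC-1. By 16 h they were 666, 805.5 and 741 with DMSO and 1357, 1347 and 1461 with YC-1. The groups overlapped at 6 h and were far apart at 16 h, when BAK1 rose by 0.92 ± 0.13 (adjusted p = 5.22e-06, limma). Under equal sums the rise was 0.59 (adjusted p = 0.00187), and under scaling to ribosomal protein genes it was 0.01 (adjusted p = 0.914), so the direction of BAK1 relative to those 81 genes was not resolved. SNU1079 counts at 16 h were 1070, 1134 and 978 with DMSO and 1415, 1224 and 921 with YC-1. They overlapped, and the difference of 0.14 did not pass (adjusted p = 0.377, limma) and was -0.22 under equal sums and -0.40 under scaling to ribosomal protein genes (adjusted p = 0.00204). The RBE effect was larger at 16 h than at 6 h by 0.94 ± 0.19 (adjusted p = 0.00143, limma), a difference of 0.10 under scaling to ribosomal protein genes, and at 16 h the SNU1079 effect was below that of RBE by -0.77 ± 0.19 (adjusted p = 0.00737, limma), or -0.41 under that scaling (adjusted p = 0.0446). The pseudogene BAK1P1 had a row of its own at 26.0 to 90.9, so some reads of the pair may have been divided or dropped.

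BOK (ENSG00000176720, chr2:241551424-241574138, forward strand), an effector that the survival members do not restrain and that turns over quickly through endoplasmic reticulum-associated degradation, was a gene of RBE. Its counts there ran from 306.5 to 500 with DMSO and from 231 to 418 with YC-1. In SNU1079 no library was above 4.86, and 1 library was listed at 0. In the main fit YC-1 and DMSO did not differ past the threshold in either line. The RBE difference at 16 h was -0.47 ± 0.46 (adjusted p = 0.413, limma), although all YC-1 libraries lay below all DMSO libraries. Its error comes from a spread shared by both lines, so the SNU1079 libraries near 0 enter it. The difference ran from -1.37 to -0.22 over 23 alternatives and passed in 3 of them. In SNU1079 at 6 h, where counts were near 0, it passed in 1 of 24.

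Under DMSO alone the lines had different family profiles. At 6 h 7 of 10 members differed between SNU1079 and RBE, against 56.4% of all genes, 5 higher in SNU1079 (27.2%) and 2 lower (29.2%). At 16 h 6 differed, against 55.1%, 4 higher (25.9%) and 2 lower (29.3%). MCL1 was lower in SNU1079 by a log2 difference of -0.81 at 6 h and -0.93 at 16 h, and no library of the lines overlapped. BCL2L1 was higher in SNU1079 by 0.83 at 6 h and by 0.33 at 16 h. BCL2 was higher by 1.52 and 1.75, BMF by 1.77 and 2.81 and BAK1 by 0.54 and 0.53. BCL2L2 was higher by 0.70 at 6 h, and its 16 h difference of 0.38 did not pass (adjusted p = 0.0507, limma). BOK was lower by -6.54 and -7.11, values that depend on the number added before the logarithm and were -5.15 and -5.26 with 8 in place of 1. Time in DMSO moved 0 members in RBE, where 0.0448% of all genes passed. In SNU1079 it moved 2, against 8.57% of all genes: BCL2L1, lower at 16 h by -0.51 (adjusted p = 0.00222, limma), and BMF, higher by 0.86 (adjusted p = 0.0307, limma), which did not pass in any of the 6 fits without 1 library (0.82 to 0.92).

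Levels of different genes are comparable only per length, here normalised count per kilobase of all annotated exons. In RBE with DMSO MCL1 was the most abundant member at 6 h, at 2680 ± 151 (SD, n = 3) per kilobase, and BCL2L1 followed at 1870 ± 94.4. After 16 h of YC-1 their order was turned, with MCL1 at 872 ± 88.3 and BCL2L1 at 1120 ± 49.5. SNU1079 had BCL2L1 first throughout. At 6 h with DMSO it stood at 3320 ± 97.2 against 1540 ± 170 for MCL1, and after 16 h of YC-1 at 1210 ± 163 against 470 ± 41.9. In that last group BAK1, at 537 ± 113, lay beside MCL1, and the 2 did not differ beyond their spread. BCL2 was the least abundant member in RBE, at 3.7 to 7.65 per kilobase, and BOK in SNU1079, at 0.627 to 1.23. Per kilobase of the longest coding transcript, BMF (10.7) lay below BCL2 (12.1) in RBE with YC-1 at 6 h. In SNU1079 after 16 h of YC-1 that measure put BID at 536 and BAK1 at 537, beside 523 for MCL1. The order of MCL1 and BCL2L1 was the same by both lengths in every group.

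**Figure D3:**
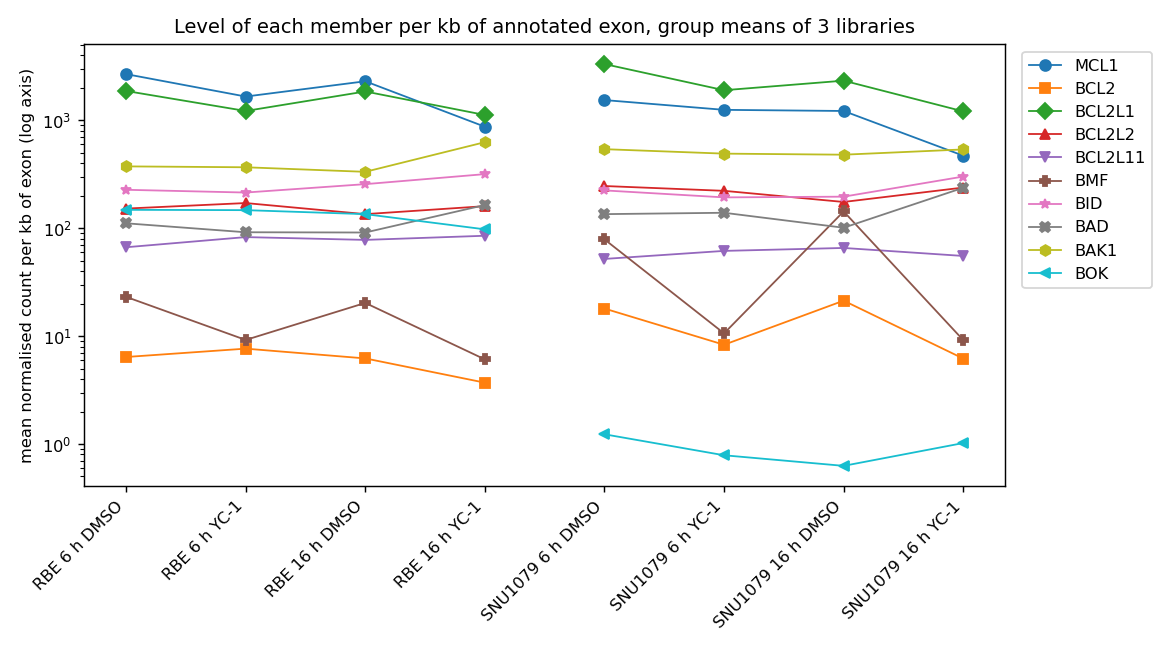
Mean normalised count per kilobase of exon for each member in the 8 groups (vertical log axis), each point the mean of 3 libraries. MCL1 heads the RBE groups with DMSO and drops below BCL2L1 after 16 h of YC-1, and BCL2L1 heads all SNU1079 groups.

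The balance of MCL1 against each other member was read as the log2 ratio of the 2 normalised counts within a library, with 1 added to each, a quantity that rescaling a library leaves almost as it is. After 16 h of YC-1 in RBE the ratio of MCL1 to BAK1 was 1.45, against 3.77 with DMSO, and in SNU1079 it was 0.81 against 2.31. The ratio of MCL1 to BCL2L1 in RBE was 0.04 against 0.71 at the same time. In the other comparisons its groups overlapped, with 0.85 against 0.92 in RBE at 6 h. In SNU1079 it was -0.22 against -0.72 at 6 h and -0.96 against -0.55 at 16 h. Toward BMF the balance moved the other way, to 7.20 from 6.53 in RBE at 6 h, to 6.55 from 3.96 in SNU1079 at 6 h and to 5.35 from 2.75 in SNU1079 at 16 h. In RBE at 16 h it was 6.86 against 6.5, and the groups overlapped. Ratios were lower without overlap for 6 and 8 of 9 members in RBE at 6 h and 16 h, and for 1 and 5 in SNU1079. The same was true of the ratio of MCL1 to 65.8%, 77.6%, 29.0% and 69.4% of all other tested genes, so these counts were near what MCL1 did against genes at large. Of the 36 ratios compared, none can pass a two-sided exact permutation test of 3 against 3, whose smallest p is 0.1, and adjusted values were 0.157 or more.

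**Figure D4:**
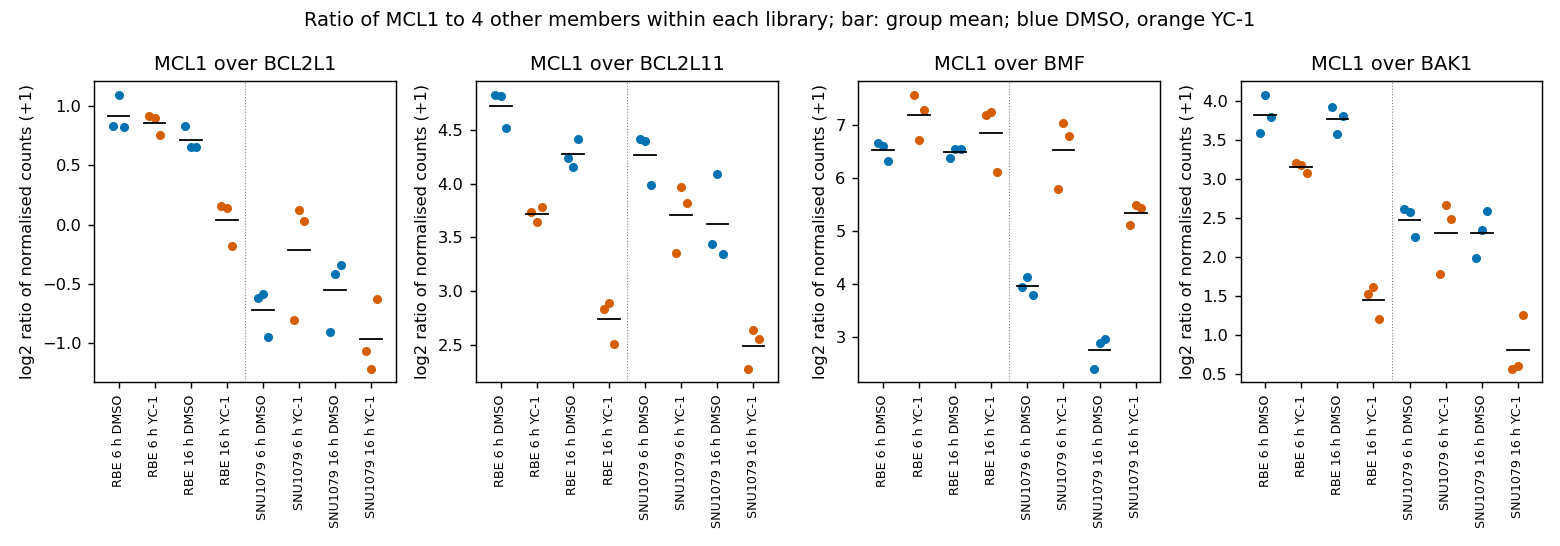
Log2 ratio of the MCL1 normalised count to that of BCL2L1, BCL2L11, BMF and BAK1 (vertical axes) in each of the 24 libraries by group, with a bar at each group's mean. The ratio to BAK1 at 16 h is 1.45 against 3.77 in RBE and 0.81 against 2.31 in SNU1079, while the ratio to BMF is higher with YC-1 in SNU1079 at both times.

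On the deposited scale the remaining genes of the family rose where they passed, a pattern that equal sums and ribosomal protein genes did not keep at 16 h. Of 13 listed, 11 were tested, and 2 rose at 6 h and 7 at 16 h in each line with 0 falling. Of all genes, 11.6% and 27.3% were higher in RBE at 6 h and 16 h and 14.0% and 28.7% in SNU1079, while 12.4% and 26.6%, and 14.2% and 25.8%, were lower, and the counts of the lists that follow stand beside these shares. The 16 h counts became 2 higher and 2 lower in RBE and 4 and 1 in SNU1079 under equal sums, and 2 and 5, and 4 and 3, under scaling to ribosomal protein genes. Of all 17860 genes, 2904 were then higher and 6474 lower in RBE under equal sums, and 3068 and 6598 in SNU1079. Under ribosomal protein genes these were 1060 and 9964, and 2292 and 7436. At 16 h the list had a median change of 0.36 in RBE and of 0.41 in SNU1079, beside 0.02 and 0.06 over all genes. PMAIP1, which encodes NOXA, the BH3-only protein that binds MCL1 and sends it to the proteasome, had the largest rise. At 6 h its mean in RBE was 1438 ± 154 (SD, n = 3) with DMSO against 8358 ± 446 with YC-1, and 1328 ± 62 against 13700 ± 892 at 16 h. In SNU1079 it was 372.4 ± 73.4 against 5121 ± 1830 at 6 h and 284 ± 64.1 against 7083 ± 1150 at 16 h. The log2 changes were 2.54 and 3.36 in RBE and 3.72 and 4.65 in SNU1079, all with an adjusted p of 1.96e-08 or less in limma. BIK, a BH3-only gene of the endoplasmic reticulum, rose at 16 h, by 1.99 in RBE and 1.50 in SNU1079 (1.10 and 0.99 under scaling to ribosomal protein genes). BBC3, which encodes PUMA, rose in RBE by 1.05 and 1.06, and the 16 h value was 0.17 under scaling to ribosomal protein genes. BCL2A1, another short-lived survival gene, was higher with YC-1 by 2.10 in SNU1079 at 16 h, where its DMSO mean was 61.85, against 205.3 at 6 h, and its YC-1 means were 328.6 at 6 h and 269.6 at 16 h.

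Among genes that regulate MCL1 protein more fell than rose. Of 9 such genes 4 fell at 6 h and 5 at 16 h in RBE, against 12.4% and 26.6% of all genes, and 6 and 4 in SNU1079, against 14.2% and 25.8%, while 2 rose in RBE and 1 in SNU1079, each at 16 h. Median changes of the list were -0.53, then -0.40 in RBE, and -0.88, then -0.15 in SNU1079. BTRC, an adaptor of a ubiquitin ligase that marks MCL1, changed by -1.73 and -3.42 in RBE and by -1.94 and -2.99 in SNU1079. GSK3B, the kinase whose phosphorylation of MCL1 precedes that step, changed by -1.29 and -1.97 in RBE and by -1.50 and -2.33 in SNU1079. The deubiquitinase genes USP13 and USP9X, whose products spare MCL1, also fell: USP13 by 0.56 and 1.56 in RBE and by 0.88 and 1.88 in SNU1079, and USP9X by 1.52 in RBE at 16 h and by 0.69 and 1.11 in SNU1079. Genes for both removal and rescue of the protein thus fell.

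Transcription factors known to act on family genes split. Of 12, 4 rose and 2 fell in RBE at 6 h and 5 and 6 at 16 h, and in SNU1079 the counts were 2 and 3, then 5 and 4, with medians of -0.16 and -0.20, then -0.09 and 0.30. FOXO1, a factor known to drive BCL2L11, changed by -2.01 and -3.44 in RBE and by -2.07 and -3.50 in SNU1079. DDIT3, which encodes the stress factor CHOP, rose by 3.24 and 2.94 in RBE and by 3.15 and 2.30 in SNU1079. SRF, one of the factors of the MCL1 promoter, rose by 0.64 and 1.12 in RBE and, at 16 h only, by 1.71 in SNU1079, and the RBE value at 16 h was 0.22 under scaling to ribosomal protein genes. The elongation genes CDK9 and CCNT1, whose products sustain transcription of short-lived messengers such as MCL1, rose on the deposited scale in all 4 comparisons, by 0.38 to 0.70 and by 0.52 to 1.03. When scaled to ribosomal protein genes CDK9 was lower in RBE at 16 h (-0.52, adjusted p = 0.004, limma), and neither gene passed in SNU1079 at 6 h (0.27 and 0.60), in SNU1079 at 16 h (-0.04 and -0.02) or, for CCNT1, in RBE at 16 h (-0.06). Under equal sums at 16 h CDK9 did not pass in either line (0.06 and 0.14), nor CCNT1 in SNU1079 (0.16).

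Downstream of the mitochondrion the directions were mixed. Of 13 caspase and apoptosome genes, 2 rose and 2 fell at 6 h in each line, 5 and 5 at 16 h in RBE, and 3 and 6 at 16 h in SNU1079, with medians between 0.00 and 0.05. CYCS, which encodes cytochrome c, rose by 0.47 and 1.24 in RBE and by 0.67 and 1.14 in SNU1079, but under scaling to ribosomal protein genes its changes did not pass in RBE (0.41 and 0.34) or in SNU1079 at 6 h (0.44), and at 16 h in SNU1079 it was 0.60. APAF1, the scaffold it activates, fell by 0.95 in RBE at 6 h and by 0.97 and 1.27 in SNU1079. Of 7 inhibitors of apoptosis, BIRC6 was the 1 that fell, by 1.32 and 2.28 in RBE and by 0.92 and 1.97 in SNU1079, while at 16 h 2 rose in RBE and 3 in SNU1079. BIRC3 was higher with YC-1 by 2.28 in SNU1079 at 16 h, against a DMSO mean of 798.7 that had been 6588 at 6 h, while its YC-1 means were 5986 at 6 h and 3893 at 16 h. Of 11 death receptor genes tested, 4 rose at 6 h and 4 at 16 h in RBE, where 3 fell at 16 h, and 4 and 6 rose in SNU1079, where 1 and 2 fell. In RBE at 16 h these counts were near the 27.3% higher and 26.6% lower of all genes. TNFRSF10D, a decoy receptor for TRAIL, rose by 0.75 and 2.94 in RBE and by 0.99 and 2.65 in SNU1079. FADD, the adaptor that brings in caspase-8, fell by 1.28 and 1.83 at 16 h. Of the 3 VDAC genes of the outer mitochondrial membrane, VDAC2, which holds BAK there, rose in all 4 comparisons, by 0.34 and 1.19 in RBE and by 0.52 and 1.12 in SNU1079. Under scaling to ribosomal protein genes it was 0.27, 0.29, 0.29 and 0.58, and only the last passed. VDAC1 passed at 16 h in RBE, at 0.27, which was -0.05 under equal sums, and VDAC3 fell by 0.73 in SNU1079 at 16 h. Under scaling to ribosomal protein genes the counts higher and lower in RBE at 16 h were 0 and 9 for caspase and apoptosome genes, 0 and 4 for inhibitors of apoptosis, 1 and 7 for death receptor genes and 1 and 8 for transcription factors. Of all 17860 genes, 1060 were higher and 9964 lower there under that scaling. Some falls were then larger, to -2.17 for FADD, -2.42 for USP9X and -2.46 for USP13 in RBE at 16 h and to -1.27 for VDAC3 in SNU1079 at 16 h. Among the genes named from the lists, leaving out 1 library ended the call in at least 1 fit for BBC3 (0.92 to 1.22 over the 6 fits), USP13 (-0.76 to -0.47), VDAC2 (0.28 to 0.38) and SRF (0.54 to 0.71) in RBE at 6 h, for VDAC1 in RBE at 16 h (0.25 to 0.31), for USP9X in SNU1079 at 6 h (-0.82 to -0.45) and for CCNT1 in SNU1079 at 16 h (0.28 to 0.73).

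**Figure D5:**
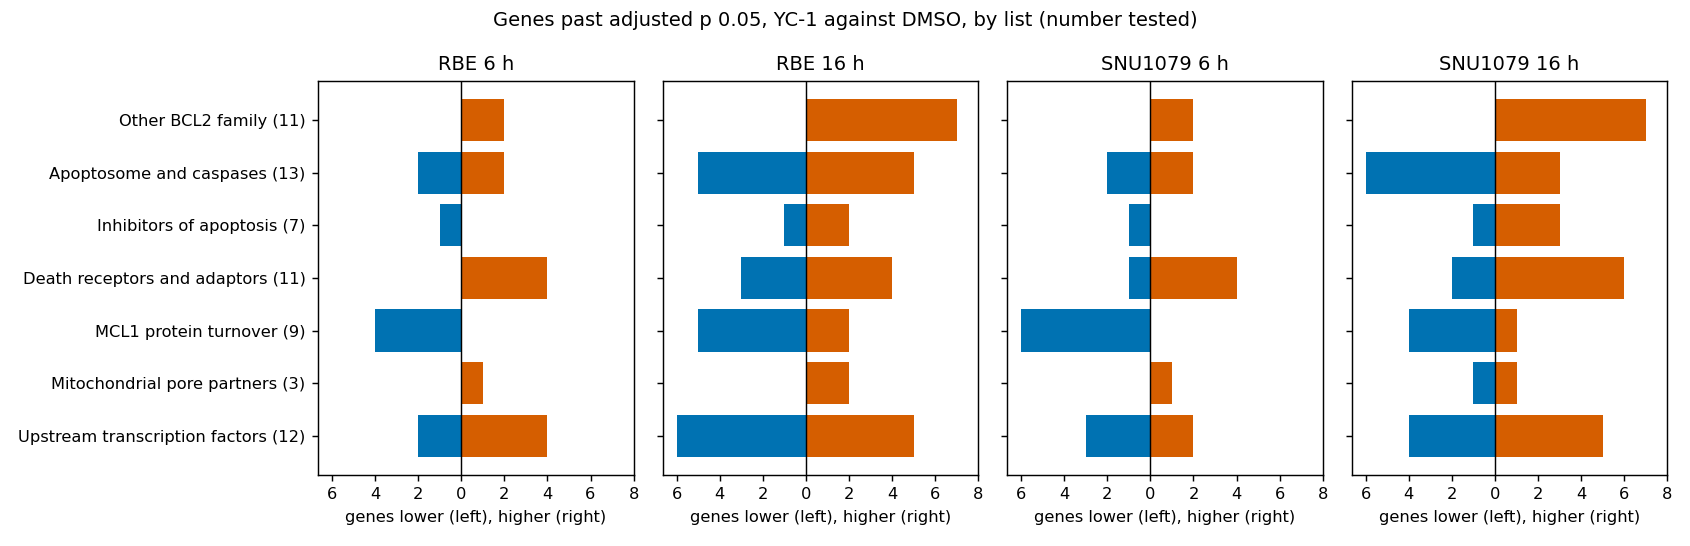
Number of listed genes (horizontal axes) higher (right of 0) and lower (left of 0) with YC-1 at an adjusted p under 0.05, for 7 gene lists and each combination of line and time. The other BCL2 family genes show 7 higher and 0 lower at 16 h in both lines, counts that are 2 and 5 in RBE and 4 and 3 in SNU1079 under scaling to ribosomal protein genes. Of all 17860 genes, 1060 and 9964 in RBE and 2292 and 7436 in SNU1079 were higher and lower under that scaling.

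Genes whose pattern over the 8 group means, centred within each line, was most like that of MCL1 were NCOA5 (Pearson r of 0.9936), TRPC4AP (0.9921), SH3RF1 (0.9909), UBTD2 (0.9908) and ENSG00000231025 (0.9893), out of 11285 genes with a mean of at least 100. Among the members, r with MCL1 was 0.90 for BCL2L1, 0.73 for BCL2 and 0.69 for BMF, and it was -0.80 for BID and for BAD and -0.65 for BAK1. These are descriptions over 8 means that come from the same libraries.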

How the data were processed

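RNeasy Plus RNA of 24 samples was turned into TruSeq Stranded mRNA libraries, per the labels' protocols. What the authors deposited is a table of counts normalised between libraries, a signal from which raw counts cannot be read back. STAR, DESeq2 and build hg38 appear in the submitters' processing notes, with no versions; the sources used here do not say which tool counted reads, against which annotation or with which strand setting. Of a library's low values, 22.8% to 67.9% were whole multiples of the commonest to within 0.1, so reads were not recovered, tests on counts were not run and the depth behind each value is unknown.

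A gene entered the tests when 3 or more libraries had at least 10 (17860 genes). On the log2 scale, after adding 1, limma (version 3.58.1, R 4.3.3) fitted the mean of every group in a single model with an intensity trend and 16 residual degrees of freedom. P-values are two-sided, with Benjamini-Hochberg adjustment over all genes tested. Tests covered YC-1 against DMSO (4), differences between those effects (4) and DMSO libraries alone (4). Adding 1 understates changes of low genes. The script was tested on simulated data. Coordinates, exon lengths and coding sequence were taken from GENCODE 29 by Ensembl identifier, and start regions from RefSeq. From each list at most 5 genes could be named, those with the largest change among genes that passed; 1 listed gene and the counts of its list are not reported here. Alternatives varied the number added, the filter, the scaling, the model and its libraries, the thresholds and the pooling of times. The members and lists were chosen with earlier results of these data known. Libraries with the same replicate number did not consistently deviate together (correlations of -0.15 to 0.19 between YC-1 and DMSO libraries of a line and time, and of -0.21 to 0.34 over all pairs within a line), so the numbers were not taken to pair them. Figures used matplotlib 3.10.9 in Python 3.11.15.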

Additional observations from a re-analysis of the deposited data

Results flagged for a closer look

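Some members had a YC-1 effect that differed between times or lines by limma's test of the difference itself (adjusted p under 0.05 over all genes). For MCL1 the effect was more negative at 16 h than at 6 h by -0.72 log2 units in RBE and -1.05 in SNU1079. For BMF it was more negative at 16 h in SNU1079 by -1.06, and more negative in SNU1079 than in RBE by -1.55 at 6 h and -2.19 at 16 h. The -1.06 and the -1.55 each failed in some fits that left out 1 library, while the -2.19 passed in all of them. BID had a more positive effect at 16 h in SNU1079 by 0.88 (0.56 when scaled to ribosomal protein genes). BAK1 had a more positive effect at 16 h in RBE by 0.94 (0.10 when scaled to ribosomal protein genes), and an effect lower in SNU1079 than in RBE at 16 h by -0.77 (-0.41 under that scaling). The part of DMSO levels in the BMF differences was not tested: under DMSO, BMF was 1.77 and 2.81 log2 units higher in SNU1079 than in RBE.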

How the results depend on the processing

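Of 40 member results for YC-1 against DMSO, 10 kept their direction and their side of the threshold in every alternative. MCL1 at 16 h and BMF at both times did so in both lines, and BCL2 in SNU1079, 2 more never passed (BCL2L2 in RBE and BCL2L11 in SNU1079, at 6 h), and BCL2L1 failed only a limit of 1 on the log2 change. Depth is unknown, so it sets no limit that can be stated, and BOK in SNU1079 is too low to follow. The cause of the changes below was not tested.

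Scaling mattered most at 16 h. Over all genes the split of higher and lower calls there was 4867 to 4754 in RBE and 5130 to 4611 in SNU1079. It was 2904 and 6474, then 3068 and 6598, under equal sums, 3741 and 5709, then 3784 and 5910, under equal sums without mitochondrial genes, and 1060 and 9964, then 2292 and 7436, under ribosomal protein genes (1360 and 3623 in SNU1079 at 6 h, from 2499 and 2543). Under equal sums the sign turned in RBE for BOK at 6 h (-0.01) and at 16 h for BCL2L2 (-0.08), BCL2L11 (-0.20), BID (-0.02) and VDAC1 (-0.05), and in SNU1079 at 16 h for BAK1 (-0.22) and BOK (-0.02). Without mitochondrial genes it turned for BCL2L11 in RBE (-0.06) and BAK1 in SNU1079 (-0.10), both at 16 h. Under ribosomal protein genes it turned in RBE for BOK at 6 h (-0.05) and at 16 h for BCL2L2 (-0.66), BCL2L11 (-0.77), BID (-0.59), BAD (-0.05), CASP10 (-0.11), TNFRSF10A (-0.24), VDAC1 (-0.63), CDK9 (-0.52), CCNT1 (-0.06) and HEXIM1 (-0.38). In SNU1079 at 16 h it turned for BCL2L2 (-0.15), BAK1 (-0.40), BOK (-0.22), CDK9 (-0.04) and CCNT1 (-0.02). Under ribosomal protein genes 8 of 10 members passed for RBE at 16 h, beside 11024 of all 17860 genes. For SNU1079 at 6 h 5 passed, beside 4983, and for the difference between times in RBE 6 passed, beside 7807.

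For the settings from here on, the share of all genes that passed is not given. Their counts of members that passed are thus not read as results about the family. With array weights BAK1 in RBE at 6 h was 0.02 and BCL2L11 in SNU1079 at 16 h 0.13. The members that passed were 5 in SNU1079 at 6 h, 4 and 6 for the differences between times in RBE and SNU1079, 5 and 4 for those between lines at 6 h and 16 h, and 5 for time in DMSO in SNU1079. Fitting only the line compared gave 8 in RBE at 16 h, 4 and 1 for the differences between times and 0 for time in DMSO in SNU1079. Fitting only the libraries compared gave 8 in RBE and 4 in SNU1079 at 16 h, and 4 and 1 for the differences between times. Pooling both times turned, against the 6 h values in RBE, BCL2 (-0.22), BID (0.12), BAD (0.30), BAK1 (0.45) and BOK (-0.22), and in SNU1079 BCL2L2 (0.11), BID (0.22) and BAD (0.53). Against the 16 h values in SNU1079 it turned BCL2L11 (0.01), BAK1 (0.00) and BOK (-0.18), with 4 members passing.

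At an adjusted p under 0.01, 1 member passed for each difference between times, 0 for lines at 6 h and 1 for time in DMSO in SNU1079. With a log2 change of at least 1 required, 1 and 2 members passed in RBE at 6 h and 16 h, 4 in SNU1079 at 16 h, 0 for the difference between times in RBE, 1 for that between lines at 16 h, 3 and 3 for the lines in DMSO and 0 for time in DMSO in SNU1079. Without the 3 libraries that stood apart, a choice made after seeing the data, BOK in SNU1079 at 16 h was -0.18 and 3 members passed for lines at 6 h.

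Leaving out 1 library gave 4 to 9 members that passed in SNU1079 at 16 h, 1 to 7 for its difference between times, 0 to 2 at 6 h and 2 to 4 at 16 h for lines, and 1 for its time in DMSO. Single values ran from -0.20 to 0.04 for BID, -0.10 to 0.08 for BAK1 and -0.16 to 0.20 for BOK in RBE at 6 h, -0.46 to 0.15 for BAD in SNU1079 at 6 h, and 0.00 to 0.31 for BAK1 and -0.33 to 0.95 for BOK in SNU1079 at 16 h. With a replicate block, 3, 5, 3 and 7 members passed for YC-1 against DMSO, 2, 3, 1 and 2 for the differences, and 8, 7, 0 and 3 among DMSO libraries.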
